A study of Mus musculus with 36 samples.

Results

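The genes described here encode the subunits of the 5 complexes of mitochondrial oxidative phosphorylation. They were chosen by symbol alone, from those that begin with Nduf, Uqcr, Cox4 to Cox8 or Atp5 and the 4 succinate dehydrogenase genes Sdha, Sdhb, Sdhc and Sdhd. The rule found 78 genes, read by 107 probes, among the 9930 genes that carried a single symbol on the array. They comprised 36 genes of complex I, 4 of complex II, 7 of complex III, 16 of complex IV and 15 of complex V. The symbol rule also took in 5 complex I assembly factors (Ndufaf1, Ndufaf3, Ndufaf5, Ndufaf6 and Ndufaf7), which are not subunits of the finished complex.

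The measurements came from NIH3T3 cells, an established line of mouse embryonic fibroblasts, transfected with Erbb2 under a tet-off switch, in which tetracycline turns the transgene down. Cells were taken 1, 2, 4, 12 and 24 h and 3, 5 and 7 days into tetracycline, and their RNA was hybridised to dual-colour cDNA arrays, 4 per time, beside RNA of untreated Erbb2 transfected cells in channel 2. A ninth group carried untreated cells in channel 1 as well, so that every group shared the transfected parent line and the control channel. On replicates 1 and 2 of a group channel 1 was in Cy5, and on replicates 3 and 4 it was in Cy3. The columns of untreated replicates 1 and 2 were equal apart from an offset of 0.771 (SD 0.0005 over 19772 values) and count once, so 3 untreated arrays and 35 arrays in all were used. The labels give neither the promoter and clone of the transgene nor whether replicates were separate cultures, so p-values measure only the spread between these arrays, which may be technical. Their protocols speak of organs and of a pool from control animals, and the design text of 2 different untreated lines, so what the ratios were taken against is not fully settled.

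Each value is a log2 ratio, centred on the median of its array and turned to read treated over untreated, with values above 0 for RNA higher in treated cells. This direction was assumed, since no file states which dye was the numerator. The arrays of 3, 5 and 7 days spread more widely than the others, with an interquartile range of 0.697 to 1.419 over all probes against 0.357 to 0.504 at 1 to 24 h and 0.492 to 0.700 in the untreated arrays. Between 17508 and 20010 probes carried a value on an array. A ratio gives no level, so neither the labelled cell type nor the order of the subunits' abundance could be checked, and less RNA per cell cannot be told apart from fewer cells of a type. Erbb2 itself was not analysed here.

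Oxidative phosphorylation passes electrons from NADH through complex I and from succinate through complex II to ubiquinone, then by complex III to cytochrome c and by complex IV to oxygen. Complexes I, III and IV pump protons across the inner mitochondrial membrane, and complex V, the ATP synthase, lets them return to make ATP. Most subunits are encoded in the nucleus and measured here, while a few are encoded in mitochondrial DNA. Many of the nuclear genes are known targets of nuclear respiratory factor 1 (NRF1) and of the ETS family protein GABPA, whose sites lie close to the start of transcription.

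Promoter windows from 250 bases before to 50 bases after the annotated start (RefSeq, GRCm38.p6) were given for 65 of the 78 genes. The 3 windows below belong to genes that differed between early and late times and hold the motifs searched, which are in capitals and run 5′ to 3′ along the gene's strand. Cox5b (chr1:36691237-36691536, plus strand) holds the shorter NRF1 motif, Uqcr11 (chr10:80406772-80407071, minus strand) the ETS motif followed by the shorter NRF1 motif read on the opposite strand, and Atp5k (chr5:108434350-108434649, minus strand) the full palindromic NRF1 motif.
Cox5b: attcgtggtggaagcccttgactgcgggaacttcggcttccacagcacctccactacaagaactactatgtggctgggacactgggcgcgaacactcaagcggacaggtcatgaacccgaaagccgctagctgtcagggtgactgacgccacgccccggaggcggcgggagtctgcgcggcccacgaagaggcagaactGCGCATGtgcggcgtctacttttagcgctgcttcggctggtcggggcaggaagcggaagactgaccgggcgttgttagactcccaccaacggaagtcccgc
Uqcr11: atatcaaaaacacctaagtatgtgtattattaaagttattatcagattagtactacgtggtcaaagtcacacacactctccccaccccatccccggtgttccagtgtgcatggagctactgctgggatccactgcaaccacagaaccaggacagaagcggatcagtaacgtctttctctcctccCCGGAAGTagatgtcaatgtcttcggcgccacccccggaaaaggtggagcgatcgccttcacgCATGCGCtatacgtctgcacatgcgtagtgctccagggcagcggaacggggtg
Atp5k: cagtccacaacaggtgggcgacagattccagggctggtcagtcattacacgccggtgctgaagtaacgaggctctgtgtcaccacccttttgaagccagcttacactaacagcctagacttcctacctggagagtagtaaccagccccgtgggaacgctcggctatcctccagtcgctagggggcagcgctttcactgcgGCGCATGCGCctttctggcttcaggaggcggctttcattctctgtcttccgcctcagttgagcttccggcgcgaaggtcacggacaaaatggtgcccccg
Both strands were searched. The full NRF1 motif, spelled by the capitals of the Atp5k window, occurred in 4 of 70 windows of the set (5.71%) against 0.97% of all 32851 windows of 300 bases. Its shorter form, GCGCATG, which the full motif contains, occurred in 11 windows (15.71%) against 3.91%. The ETS motif, CCGGAAGT, occurred in 5 windows (7.14%) against 3.89%. Of the 20 matched genes that differed between early and late times, 1 held the full NRF1 motif, 5 the shorter form and 3 the ETS motif. Among the 39 matched genes that were tested and did not pass, the counts were 3, 6 and 2. A match describes the letters of a window and is not a binding site.

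As a set, the subunit genes lay slightly above the array median in the first hours of tetracycline and below it from 3 days on. The median over all members of an array averaged 0.11 ± 0.02 (SD, n = 4) at 1 h, 0.23 ± 0.03 at 2 h, 0.15 ± 0.05 at 4 h, 0.03 ± 0.05 at 12 h and 0.14 ± 0.04 at 24 h. It then averaged -0.14 ± 0.11 at 3 days, -0.26 ± 0.02 at 5 days and -0.06 ± 0.15 at 7 days. The untreated arrays gave 0.10 ± 0.07 (n = 3). All 12 arrays of 1, 2 and 4 h lay above 0 (0.088 to 0.269), and 10 of the 12 arrays of 3, 5 and 7 days lay below it (-0.285 to 0.057). No array of those early times overlapped with one of the late times. The late medians were split by dye at 3 days, with -0.168 and -0.279 in Cy5 against -0.038 and -0.055 in Cy3. At 7 days the split ran the other way, with 0.057 and 0.045 in Cy5 against -0.084 and -0.266 in Cy3. At 5 days the dyes lay close, at -0.230 and -0.254 in Cy5 and -0.285 and -0.266 in Cy3. The 3 untreated arrays (0.051 to 0.187) reached from the top of the late range into the early one.

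**Figure D1:**
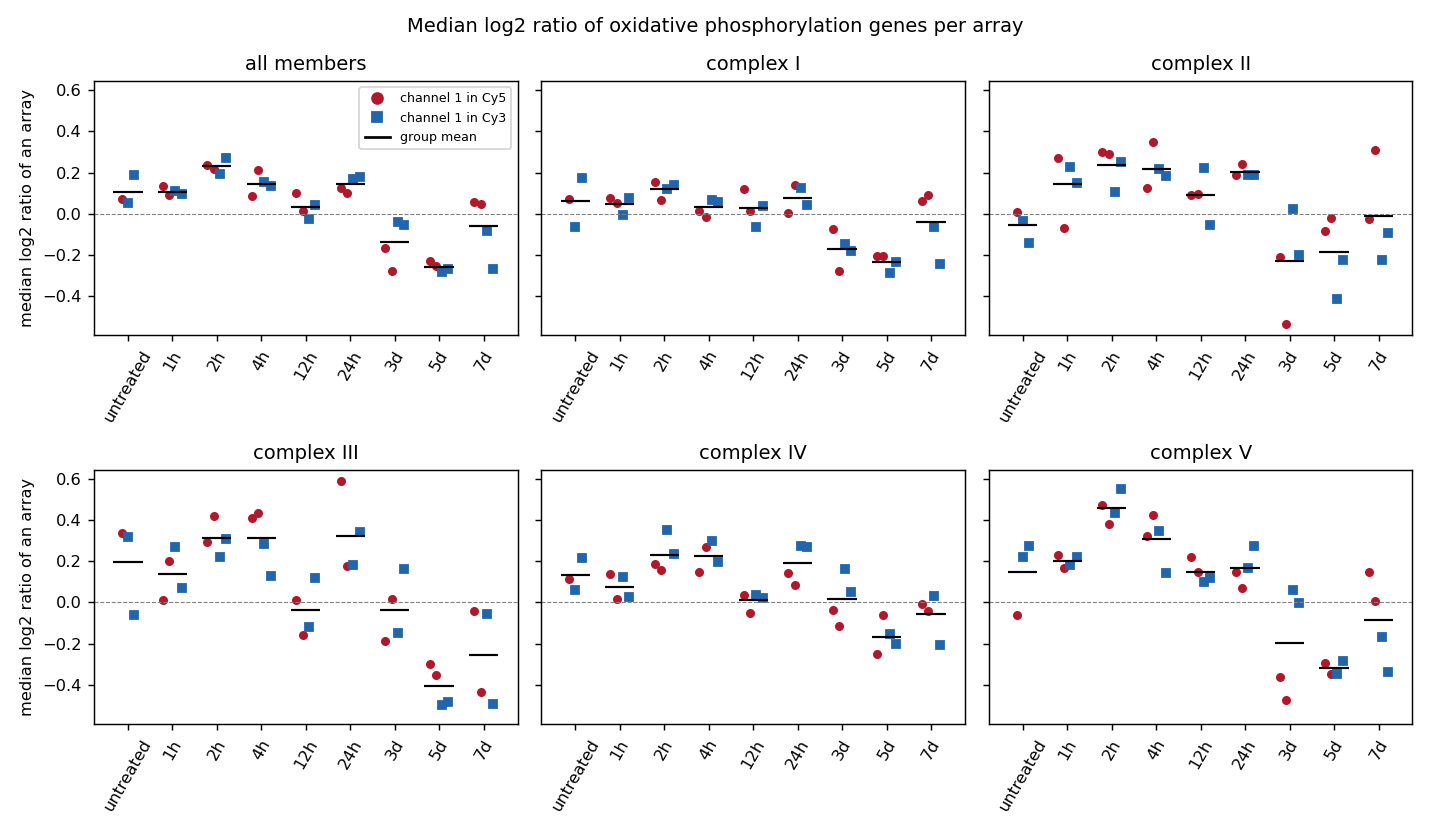
Median log2 ratio on each array over all members and over each complex (vertical axis) by group (horizontal axis), with channel 1 in Cy5 as circles, channel 1 in Cy3 as squares and the group mean as a line. The 12 arrays of 1, 2 and 4 h lie between 0.088 and 0.269 for all members, and those of 3, 5 and 7 days between -0.285 and 0.057.

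The medians of the complexes moved by different amounts. Complex V spanned the widest range, from 0.46 ± 0.07 (SD, n = 4) at 2 h to -0.32 ± 0.04 at 5 days. Complex III went from 0.31 ± 0.08 at 2 h to -0.41 ± 0.10 at 5 days, although it was also at 0.32 ± 0.19 at 24 h. Complex II gave 0.24 ± 0.09 and -0.19 ± 0.17 at the same times, over only 4 genes. Complex IV gave 0.23 ± 0.09 at 2 h and -0.17 ± 0.08 at 5 days. Complex I had the lowest median at 2 h, 0.12 ± 0.04, and reached -0.23 ± 0.04 at 5 days. At 7 days the 4 arrays spread on both sides of 0 for complexes I, II, IV and V, from -0.246 to 0.093, -0.223 to 0.308, -0.205 to 0.031 and -0.338 to 0.146. For complexes I and V this was a split by dye. Complex I gave 0.060 and 0.093 in Cy5 against -0.064 and -0.246 in Cy3. Complex V gave 0.146 and 0.009 in Cy5 against -0.167 and -0.338 in Cy3. The difference between complexes was not tested.

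To ask which single genes carried this pattern, the late arrays (3, 5 and 7 days) were compared with the early ones (1, 2 and 4 h), a contrast that uses no untreated array. Of 72 members tested, 22 passed limma's test at an adjusted p under 0.05 over all genes, 21 of them lower and 1 higher at the late times. That is 30.6% of the members, against 6.66% of all 8345 genes tested (556 genes, 4.23% lower and 2.43% higher). The median late minus early difference was -0.25 over the members, with 60 of 72 below 0, and -0.001 over all genes, with 50.27% below 0. In 1 member of 72, Atp5g3, every late array lay below every early one, which was so for 0.359% of all genes. The remaining 6 members (Ndufab1, Ndufb3, Ndufb4, Ndufc1, Ndufv1 and Uqcrfs1) had too few late values to be tested. Among the members nearest the threshold, Cox8a passed with a difference of -0.41 (adjusted p = 0.0474) and Cox6b2 did not, with 0.90 (adjusted p = 0.0708).

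The calls rest on the turning of the Cy3 arrays, without which 3 of 72 members passed (2.4% of all genes), none of them among the 22. Their direction also rests on the assumed numerator. The contrast was fitted within each dye as well, to compare the signs in the 2 dyes. With the other dye as numerator both fits would reverse together, so they cannot show the direction. The Cy5 arrays alone called 17 of 68 members (16 lower), 13 of them among the 22, against 6.66% of all genes. The Cy3 arrays alone called 16 of 69 (15 lower), also 13 among the 22, against 7.67%. Over the 64 members fitted in both dyes, 38 were lower in both, 4 higher in both and 22 of opposite sign. The share of equal sign was 65.62%, against 46.58% of 7009 genes. Across these genes, which are not independent replicates, Pearson's r between the dyes was 0.40 and Spearman's rho 0.40 for the members, and Pearson's r was 0.12 for all genes. All 20 of the called members that could be fitted in both dyes had the same sign in both. The joint fit that called them uses these same arrays, so a member of opposite signs could hardly have passed. Their sizes were not always alike, since Cox8a differed by -0.72 in Cy5 and -0.10 in Cy3, and Atp5b by -1.28 and -0.54.

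**Figure D2:**
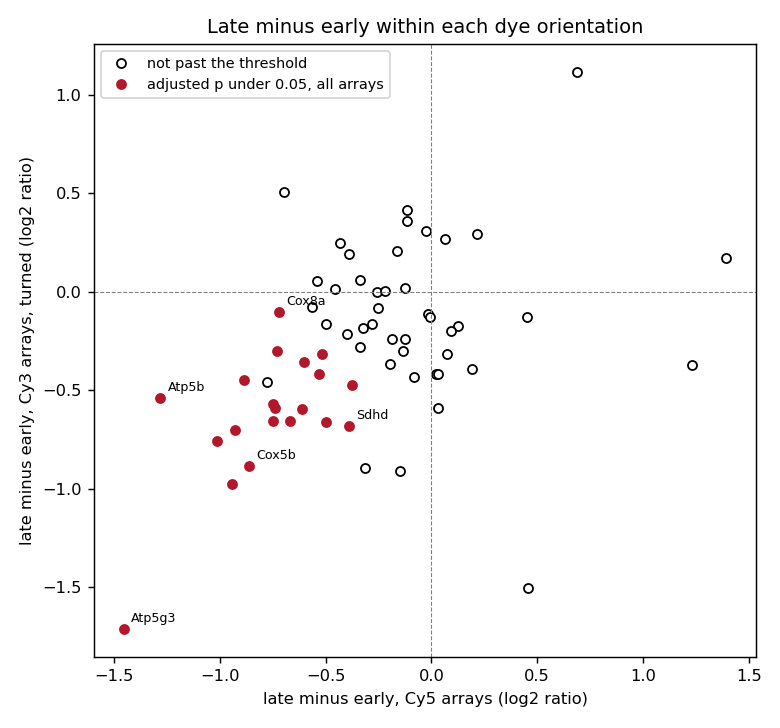
Late minus early difference of each member on the Cy5 arrays (horizontal axis, log2 ratio) and on the turned Cy3 arrays (vertical axis, log2 ratio), with members that passed in the joint fit as filled points. The filled points lie in the lower left, where both dyes gave a lower late value, from Atp5g3 (-1.45 and -1.71) to Cox8a (-0.72 and -0.10).

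Of the 22 calls, those of Atp5g3, Atp5pb, Atp5mpl, Cox5b, Sdhd and Uqcr11 were lost in 1 of 15 alternative settings, the one that left the Cy3 arrays unturned, and on leaving out none of the 24 arrays compared. The other 16 calls were lost in 2 to 10 settings each. Without the 5 and 7 day arrays 10 of 74 members passed (4.15% of all genes), 9 of them among the 22. Without the 3 day arrays 26 of 74 passed (8.72% of all genes), with 19 among the 22. With the 5 and 7 day values left in the rows where they were deposited, 12 of 64 members passed (4.05% of all genes). With values not centred 13 of 72 passed (3.67% of all genes). The wider spread of the late arrays moves with this contrast. With every array scaled to 1 interquartile range, 29 of 72 members passed (8.03% of all genes), 27 of them lower. With each probe tested alone 26 members had a probe that passed, the 4 beyond the 22 being Atp5a1, Atp5h, Cox6b1 and Uqcrq. A gene with several probes has more chances to pass in this way. The share of all genes that did so is not given here, so the count cannot be set against the shares above.

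**Figure D3:**
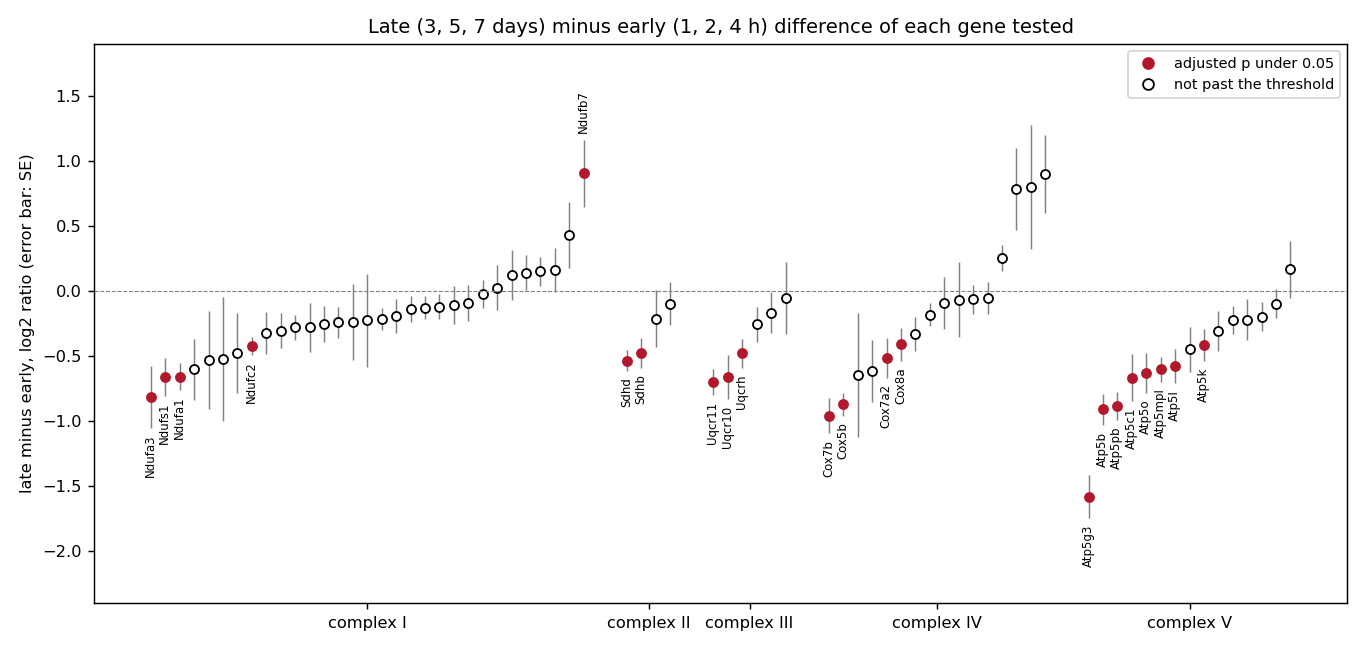
Late minus early difference of the 72 members tested (vertical axis, log2 ratio, error bars SE), grouped by complex and ordered by size, with members past the threshold filled and named. Complex V holds 8 filled points, from Atp5g3 at -1.58 to Atp5k at -0.41, and Ndufb7 at 0.90 is the single filled point above 0.

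Complex V, the ATP synthase, had the most genes that fell. Of its 15 genes, all tested, 8 fell between early and late times and none rose, with a median difference of -0.45. The enzyme has a catalytic head of alpha and beta subunits, a rotor with a ring of c subunits, and a stator that holds the head still. Atp5g3, one of several genes for the ring subunit c, moved most of all members. Its log2 ratio was 0.77, 0.56, 0.39 and 0.58 at 1 h, 1.13, 1.195, 1.05 and 0.82 at 2 h, and 0.87, 1.02, 0.37 and 0.82 at 4 h. It was -0.80, -0.87, -0.51 and -1.25 at 3 days, -0.40, -0.61, -0.88 and -1.03 at 5 days, and 0.33, -0.80, -0.86 and -1.70 at 7 days. All early arrays were thus above 0 and 11 of 12 late arrays below it, the exception being 7d replicate 1. In between, the gene gave -0.49, 0.19, 0.19 and 0.68 at 12 h and 0.31, 0.41, 0.27 and 0.65 at 24 h. The 3 untreated arrays lay far apart, at 0.74, -0.07 and -0.49. The late minus early difference was -1.58 (SE 0.16, limma adjusted p = 3.59e-08). Other genes for subunit c were not analysed here.

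The other called ATP synthase genes came from the head, the rotor, the stator and the membrane part. Atp5b, the catalytic beta subunit, ran from 0.18 to 0.96 on the early arrays (median 0.45) and from -1.15 to 0.54 on the late ones (median -0.42), a fall of 0.91 (SE 0.12). Its 3 day arrays were split by dye, at -0.67 and -1.15 in Cy5 and 0.54 and 0.38 in Cy3, and its call was lost when 3 days was the only late time. Atp5pb, subunit b of the stator, ran from 0.08 to 0.93 early (median 0.60) and from -0.89 to 0.33 late (median -0.34) and fell by 0.89 (SE 0.11). Here too 3 days was split, with -0.58 and -0.47 in Cy5 and 0.33 and 0.12 in Cy3. Atp5o, the stator protein that confers oligomycin sensitivity, fell by 0.63 (SE 0.16) and Atp5c1, the central gamma shaft, by 0.67 (SE 0.18). Atp5mpl, a small proteolipid of the membrane part, fell by 0.60 (SE 0.10). The small subunits g (Atp5l) and e (Atp5k), found where the enzyme forms dimers, fell by 0.58 (SE 0.13) and 0.41 (SE 0.12). The limma adjusted p-values of these 7 genes ran from 6.16e-07 (Atp5pb) to 0.0404 (Atp5k). The call of Atp5k was lost without 15 of the 24 arrays in turn and kept without 1h replicate 2, 2h replicates 2 and 3, 4h replicate 4, 3d replicates 3 and 4, 5d replicate 1 and 7d replicates 1 and 2.

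The 7 other genes of the complex did not pass as means of their probes. Atp5a1, the alpha subunit of the head and catalytic partner of Atp5b, gave -0.31 (SE 0.15, limma adjusted p = 0.318) over 3 probes. Tested alone, 2 of them fell, by 0.68 (SE 0.17, adjusted p = 0.00849) and 0.39 (SE 0.11, adjusted p = 0.0225), and the third had too few late values to be tested. The 3 probes of Atp5h, subunit d of the stator, ran from -0.50 (adjusted p = 0.00339) to 0.24 (adjusted p = 0.392). Atp5md, found where the enzyme forms dimers, gave -0.45 (SE 0.17). Subunit f (Atp5j2) gave 0.17 (SE 0.22) as a mean of 2 probes, but -0.20 (SE 0.18) on the one that could be tested alone, so its sign rests on the other. Of the 22 members with several probes, 16 had more than 1 that could be tested alone, and within these the probes lay at most 0.845 log2 units apart (Ndufa3).

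Complex IV, cytochrome c oxidase, had 4 of 16 genes that fell and none that rose, with a median difference of -0.14. Cox5b, a subunit on the matrix side, was the clearest of them, with log2 ratios of 0.59, 0.62, 0.66 and 0.23 at 1 h, 0.88, 0.76, 0.46 and 0.68 at 2 h, and 0.55, 0.70, 0.04 and 0.51 at 4 h. The late arrays gave 0.47, -0.11, -0.46 and -0.17 at 3 days, -0.42, -0.40, -0.38 and -0.53 at 5 days, and -0.24, -0.37, -0.81 and -0.37 at 7 days. Apart from 3d replicate 1, every late array was below 0 and below every early array. The 12 h arrays (0.40, 0.49, 0.12 and 0.03), the 24 h arrays (0.08, 0.34, 0.29 and 0.00) and the untreated arrays (0.10, -0.10 and 0.28) overlapped with the lower early values. The difference was -0.87 (SE 0.09, limma adjusted p = 3.59e-08). Cox7b, a small membrane subunit, ran from 0.17 to 1.16 early and from -1.12 to 0.42 late and fell by 0.96 (SE 0.13, adjusted p = 8.6e-06), a call lost when 3 days was the only late time.

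Several complex IV subunits come as pairs of a form found in most tissues and a form of muscle or testis. Among the common forms, Cox7a2 fell by 0.51 (SE 0.15, limma adjusted p = 0.0407) and Cox8a by 0.41 (SE 0.13, adjusted p = 0.0474). Both calls were fragile: leaving out 1 array ended that of Cox7a2 for 14 of the 24 arrays, in a range of -0.65 to -0.39. Only without 1h replicate 4, 2h replicate 2, 4h replicate 4, 3d replicates 1, 2 and 3, 5d replicates 1 and 4 or 7d replicates 1 and 2 did it pass. For Cox8a the call was kept only without 4h replicate 4, 3d replicate 3, 3d replicate 4 or 5d replicate 2. The muscle forms Cox7a1 and Cox8b gave 0.78 (SE 0.32, adjusted p = 0.172) and 0.80 (SE 0.48, adjusted p = 0.436) and did not pass. Another muscle form, Cox6a2, gave -0.06 (SE 0.11). The late arrays of Cox8b ran from -1.44 to 5.30 (median 0.57), with the highest value on 7d replicate 1. The value of Cox7a1 rests on a probe with too few late values to be tested, since its other probe gave 0.05 (SE 0.19). The testis form Cox6b2 gave 0.90 (SE 0.30, adjusted p = 0.0708) against -0.62 (SE 0.24, adjusted p = 0.151) for the common form Cox6b1. Of the 2 Cox6b1 probes, 1 fell by 0.87 when tested alone (SE 0.13, adjusted p = 1.54e-05) and the other gave -0.48 (SE 0.45). In the pair Cox6a1 and Cox6a2 the values were -0.07 (SE 0.29) and -0.06 (SE 0.11), although the Cox6a1 probe that could be tested alone gave -0.42 (SE 0.17, adjusted p = 0.155). The testis forms Cox7b2 and Cox8c gave -0.09 (SE 0.20) and -0.05 (SE 0.12). The difference within a pair was not tested. Cox4i1, the largest of the nuclear subunits, read by 4 probes, gave -0.18 (SE 0.09, adjusted p = 0.29).

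Complex III, the cytochrome bc1 complex, had 3 of 6 tested genes that fell and none that rose, with a median of -0.37. All 3 encode small subunits without redox centres. Uqcr11 gave 0.17, 0.25, 0.34 and 0.24 at 1 h, 0.43, 0.38, 0.25 and 0.38 at 2 h, and 0.60, 0.40, 0.52 and 0.13 at 4 h. At the late times it gave -0.34, -0.89, -0.26 and -0.25 at 3 days, -0.28, -0.62, -0.28 and -0.48 at 5 days, and 0.24, -0.38, -0.42 and -0.37 at 7 days. Every early array was above 0 and all late arrays but 7d replicate 1 below it. The difference was -0.70 (SE 0.10, limma adjusted p = 8.59e-06). Uqcr10 fell by 0.66 (SE 0.17, adjusted p = 0.0124), a call lost in the Cy3 arrays alone and when 3 days was the only late time. The small subunit Uqcrq did not pass as a mean of 3 probes (-0.26, SE 0.14), while 1 of its 2 testable probes fell by 0.64 (SE 0.10, adjusted p = 7.04e-05). The core proteins Uqcrc1 and Uqcrc2 gave -0.06 (SE 0.28) and -0.17 (SE 0.16) and did not pass, and the Rieske iron-sulfur protein Uqcrfs1 had 6 early and 6 late values only.

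Uqcrh, the hinge protein of complex III that contacts cytochrome c1, fell by 0.48 between early and late times (SE 0.11, limma adjusted p = 0.0043), but it followed another course. Its arrays gave -0.09, -0.61, -0.07 and -0.16 at 1 h, 0.93, 0.42, 0.19 and 0.39 at 2 h, and 0.46, 0.43, 0.04 and -0.12 at 4 h. They gave 0.15, -0.20, -0.32 and -0.06 at 12 h and 0.20, 0.18, -0.01 and -0.06 at 24 h. At 3 days they were -0.28, -0.04, 0.46 and 0.20, at 5 days -0.52, -0.65, -0.73 and -0.69, and at 7 days -0.28, -0.30, -0.50 and -0.61. The gene was thus below 0 on all 1 h arrays, above 0 on all 2 h arrays and lowest at 5 days. The call was lost in the Cy3 arrays alone, when 3 days was the only late time, and with values not centred or not moved back.

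Complex II, succinate dehydrogenase, also works in the tricarboxylic acid (TCA) cycle and is wholly encoded in the nucleus. Of its 4 genes Sdhb and Sdhd fell, and the median difference was -0.34. Sdhd, a membrane anchor, gave 0.39, 0.40, 0.37 and 0.15 at 1 h, 0.78, 0.73, 0.44 and 0.62 at 2 h, and 0.35, 0.44, 0.23 and 0.36 at 4 h. Its late arrays were split by dye at 5 and 7 days, with 0.11, 0.14, 0.30 and 0.33 in Cy5 against -0.50, -0.30, -0.50 and -0.17 in Cy3, and gave -0.23, 0.10, -0.23 and -0.21 at 3 days. The difference was -0.54 (SE 0.08, limma adjusted p = 1.92e-05), with -0.39 in Cy5 and -0.68 in Cy3. Sdhb, the iron-sulfur subunit, ran from 0.01 to 0.51 early (median 0.24) and from -0.84 to 0.29 late (median -0.19) and fell by 0.47 (SE 0.11, adjusted p = 0.00817), without passing in either dye alone (adjusted p = 0.13 in Cy5 and 0.146 in Cy3). The flavoprotein Sdha at -0.21 (SE 0.22) and the other anchor Sdhc at -0.10 (SE 0.17) did not pass.

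Complex I, NADH dehydrogenase, is the largest of the 5 and had the fewest calls for its size. Of 31 tested genes 4 fell and 1 rose, with a median difference of -0.23, and none of the 5 assembly factors passed. Ndufs1, a core subunit that carries iron-sulfur clusters, ran from -0.29 to 1.03 early (median 0.39) and from -0.85 to 0.53 late (median -0.37) and fell by 0.66 (SE 0.15, limma adjusted p = 0.00361). It passed in neither dye alone (adjusted p = 0.088 in Cy5 and 0.107 in Cy3). The other called genes encode accessory subunits, which surround the catalytic core. Ndufa1 ran from 0.13 to 0.74 early and from -0.68 to 0.42 late and fell by 0.66 (SE 0.10, adjusted p = 3.61e-05). Ndufc2 ran from -0.01 to 0.49 early and from -0.58 to 0.07 late and fell by 0.43 (SE 0.07, adjusted p = 8.01e-05). Without the 5 and 7 day arrays the calls of Ndufa1 and Ndufc2 were lost.

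Ndufa3 and Ndufb7 were the extremes of complex I. Ndufa3 fell by 0.82 (SE 0.24, limma adjusted p = 0.0326), with its 2 probes at -1.40 and -0.55. Its call was lost without any of 1h replicates 1 and 4, 2h replicates 1 and 3, 4h replicates 2, 3 and 4 and 3d replicates 2 and 3, and in 10 of 15 settings. Ndufb7, the only member that rose, gave -0.48, -0.09, -0.04 and -0.61 at 1 h, 0.36, -0.85, -0.01 and -0.42 at 2 h, and -0.59, -0.07, -0.44 and -0.17 at 4 h. The 3 arrays with a value at 3 days gave -0.03, 0.84 and 0.51, those of 5 days 0.78, 2.42, 1.12 and 0.52, and those of 7 days 0.58, -1.11, 1.54 and 0.01. The groups overlapped, since 7d replicate 2 was the lowest array of all 6 times. The rise was 0.90 (SE 0.26, adjusted p = 0.0307), and it was lost without 1h replicate 4, 2h replicate 2, 2h replicate 4, 4h replicate 3, 5d replicate 2, 7d replicate 1 or 7d replicate 3, and in 8 of 14 settings.

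**Figure D4:**
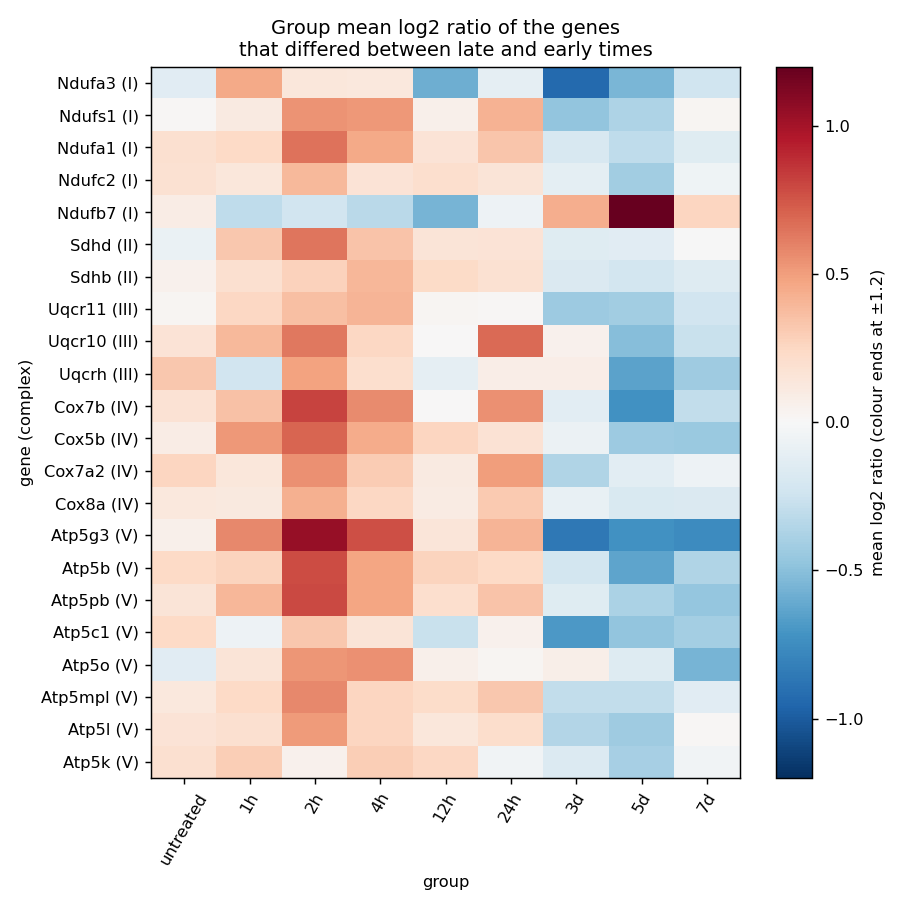
Mean log2 ratio of the 22 members that differed between late and early times (rows, with the complex in brackets) in each group (columns), on a colour scale that ends at ±1.2. The 21 members that fell all had a mean above 0 at 2 and 4 h and below 0 at 5 days, and Ndufb7 shows the opposite signs.

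The group means of the 21 members that fell are given as a description, since the contrast that chose them left out only 12 h, 24 h and the untreated arrays. At 12 h 18 of the 21 means were above 0 (median 0.14), at 24 h 19 (median 0.21) and in the untreated arrays 18 (median 0.16). At 1 h 19 were above 0 (median 0.24), and at 2 h all 21 (median 0.54), the highest median of any group. At 3 days 18 were below 0 (median -0.17), at 5 days all 21 (median -0.41) and at 7 days 19 (median -0.23). The untreated and 24 h medians thus lay between those of 2 h and 5 days, which were the highest and lowest of any group. This describes the list and does not hold for every gene.

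Each time was also set against the 3 untreated arrays, the comparison the study was designed around. The 8 comparisons share those arrays, and at most 3 members passed in any of them. Array weights raised the count to 7, 12 and 9 at 1 h, 2 h and 5 days. Scaling to 1 interquartile range raised it to 8 at 2 h. The share of all genes called under those settings is not given here, so these counts alone are not results about the members. At 1 h 1 of 76 members passed (0.25% of all genes did), at 2 h 1 of 76 (0.527%), at 4 h 0 of 76 (0.257%), at 12 h 0 of 75 (0.0218%) and at 24 h 0 of 76 (0.0219%). At 3 days 1 of 73 passed (0.5%), at 5 days 3 of 74 (1.58%) and at 7 days 1 of 75 (1.1%). Where limma called none, the members with an unadjusted p under 0.05 numbered 5 at 4 h, 3 at 12 h and 2 at 24 h. With array weights limma called 5, 1 and 3 at those times, for which the share of all genes is again not given. The median member lay 0.04, 0.15, 0.07, -0.02 and 0.02 from the untreated arrays at 1, 2, 4, 12 and 24 h, and -0.17, -0.37 and -0.17 at 3, 5 and 7 days. Over all genes these medians ran from 0.004 to 0.04. Without centring all genes lay -0.251 to -0.374 from the untreated arrays, and the member medians at 1, 2, 4 and 24 h changed sign with them.

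Ndufa6, an accessory subunit of complex I in the LYR protein family, accounted for 4 of the 7 calls. It gave -0.47, -0.51, -0.38 and -0.59 at 1 h, 0.15, -0.30, -0.06 and -0.14 at 2 h, and -0.25, -0.26, -0.37 and -0.20 at 4 h. At 12 h it gave -0.02, -0.20, -0.69 and -0.30 and at 24 h -0.01, -0.01, 0.03 and -0.08, the 4 tightest values of its course. At 3 days it gave -0.19, -0.40, -0.67 and -0.81, at 5 days -0.66, -0.51, -0.67 and -0.50, and at 7 days -0.30, -0.38, -0.37 and -0.53, against -0.05, 0.49 and 0.40 in the untreated arrays. Compared with those, it fell by 0.78 at 1 h (SE 0.16, limma adjusted p = 0.0184), 0.81 at 3 days (adjusted p = 0.0138), 0.88 at 5 days (adjusted p = 0.0019) and 0.69 at 7 days (adjusted p = 0.0241). It was already below 0 on all 1 h arrays, as was Uqcrh, and its late minus early difference of -0.22 did not pass (adjusted p = 0.149). The 2 Cy3 untreated arrays, replicates 3 and 4, held the high values. Leaving out either ended the calls at 1 h, 3 days and 7 days but not at 5 days. The call at 1 h was also lost without 1h replicate 1, 2 or 4, and that at 7 days without 7d replicate 4.

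The other calls against untreated were Sdhd at 2 h and Ndufc2 and Uqcrh at 5 days. Sdhd rose by 0.68 at 2 h (SE 0.15, limma adjusted p = 0.0241), from untreated values of 0.28, -0.42 and -0.11, and the call was lost without any of the 4 arrays of 2 h or untreated replicate 3 or 4. Uqcrh fell by 0.98 at 5 days (SE 0.20, adjusted p = 0.00775), from untreated values of -0.05, 0.33 and 0.69, and the call was lost without untreated replicate 4. Ndufc2 gave -0.32, -0.27, -0.58 and -0.49 at 5 days against -0.05, 0.31 and 0.29 untreated and fell by 0.60 (SE 0.13, adjusted p = 0.0108), a call lost without untreated replicate 3 or 4. In a fit of only the groups compared, none of the 7 calls was kept.

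**Figure D5:**
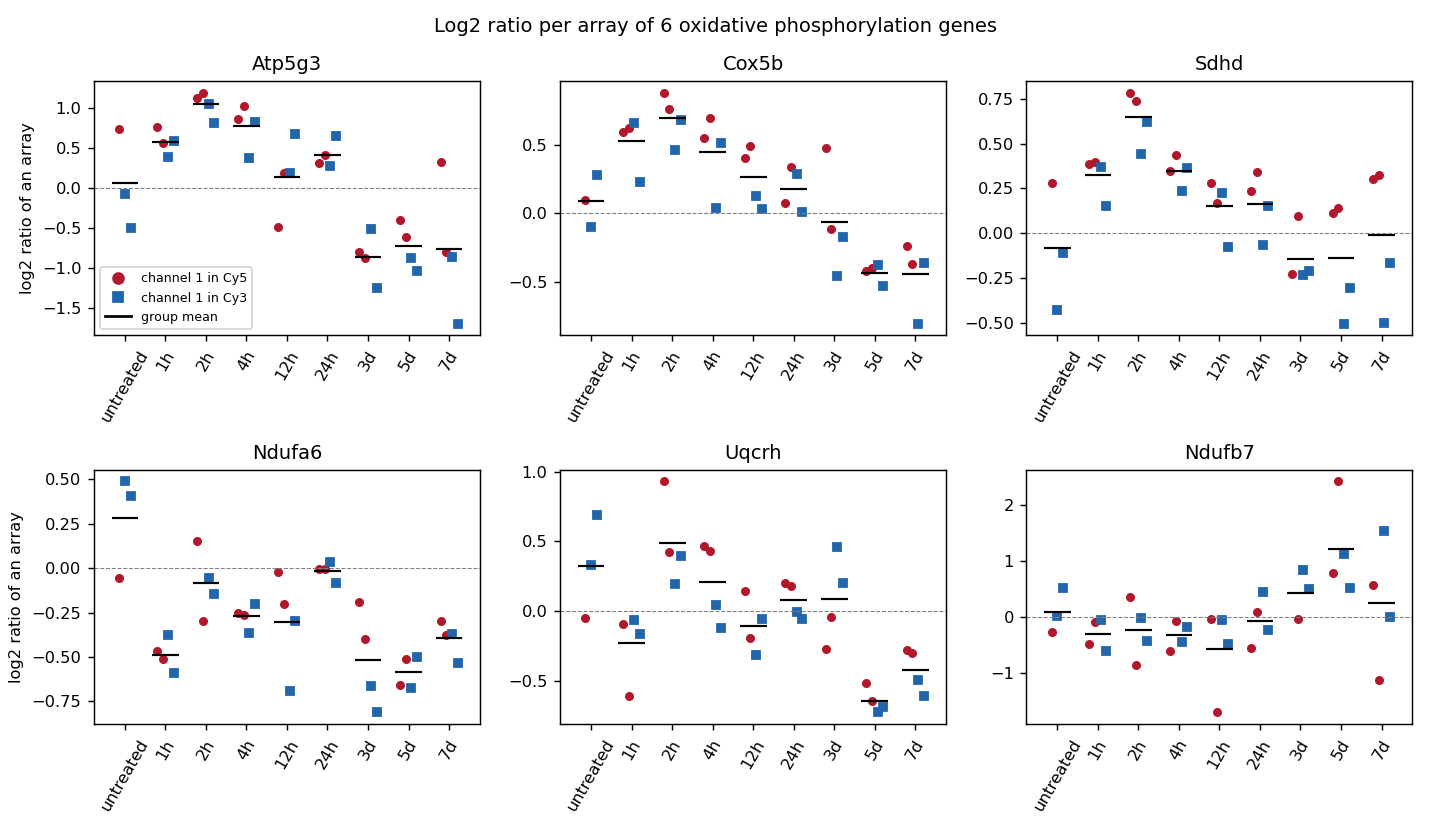
Log2 ratio on each array (vertical axis, with its own scale in each panel) of Atp5g3, Cox5b, Sdhd, Ndufa6, Uqcrh and Ndufb7 by group (horizontal axis), with channel 1 in Cy5 as circles, in Cy3 as squares and the group mean as a line. Atp5g3 goes from a mean of 1.05 at 2 h to -0.86 at 3 days, while Ndufa6 is at -0.49 at 1 h and -0.02 at 24 h.

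Since both channels of the untreated arrays held untreated cells per the labels, each time was also tested against a ratio of 0, which leaves out the spread of those 3 arrays and their distance from 0. Their member median averaged 0.10, and 18 of the 21 members that fell had an untreated mean above 0 (median 0.16), so values against 0 include that baseline. At 2 h 11 of 77 members were then higher and none lower, against 2.56% of all genes that passed and 2.28% that were higher. They were Sdhd, Cox5b, Atp5pb, Atp5g3, Atp5b, Ndufa1, Cox7b, Atp5mpl, Ndufc2, Atp5md and Uqcrh, with log2 ratios from 0.39 (Ndufc2) to 1.05 (Atp5g3). At 5 days 9 of 75 were lower and 1 higher, against 4.86% of all genes that passed and 2.36% that were lower. The lower genes were Ndufa6, Ndufc2, Uqcrh, Cox7b, Atp5b, Cox5b, Atp5g3, Ndufb11 and Uqcr11, from -0.73 (Atp5g3 and Cox7b) to -0.41 (Ndufc2 and Uqcr11), and the higher one was Ndufb7 at 1.21. At 1 h 3 members passed, Cox5b and Ndufb8 higher and Ndufa6 lower, against 0.763% of all genes. Ndufb8 is a mean of 2 probes, and its 1 h arrays lay far apart, at 0.15, 0.80, 1.23 and 2.75. At 4 h only Cox5b passed, as did 0.932% of all genes. No member passed at 12 and 24 h, where 0.368% and 0.347% of all genes did. At 3 days 5 of 74 passed (5.13% of all genes), with Ndufa6, Atp5g3, Uqcr11 and Ndufs4 lower and Ndufs7 higher, and at 7 days 5 of 76 (5.43%), with Cox5b, Ndufa6, Atp5g3 and Atp5pb lower and Cox5a higher. Those 2 shares are near the background.

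A test for a change from untreated at any of the 8 times called 12 of 71 members, 16.9%, against 5.02% of all genes. They were, in order of adjusted p, Cox5b (1.47e-05 by limma's F-test), Atp5g3, Atp5pb, Cox7b, Atp5b, Ndufc2, Uqcrh, Sdhd, Uqcr11, Ndufa6, Ndufa1 and Atp5mpl (0.00431). Apart from Ndufa6, all had also passed between late and early times, a contrast computed on 24 of the same arrays.

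The largest single differences from untreated came mostly from genes with wide replicate spread, and none passed. The highest member was Ndufaf3 at 1 h (1.60, SE 0.89), Ndufv1 at 2 and 12 h (1.75, SE 0.89, and 1.47, SE 0.96), Ndufaf7 at 4 h and 3 days (0.85, SE 0.67, and 1.09, SE 0.63), Ndufc1 at 24 h (1.27, SE 0.77), Ndufb7 at 5 days (1.16) and Cox8b at 7 days (1.68, SE 0.94). The lowest was Cox7a1 at 1, 2 and 4 h (-0.86, -1.05 and -1.17, SE 0.59), Cox7c at 12 h (-1.32, SE 0.93), Ndufb4 at 24 h (-1.47, SE 1.17), Atp5g3 at 3 and 7 days (-0.96 and -0.86, SE 0.305) and Ndufb5 at 5 days (-1.04, SE 0.53). Apart from those of Atp5g3, these are values of single fits with few or scattered arrays. For Atp5g3 the 3 day arrays were all below 0, and the untreated arrays lay far apart.

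Other mitochondrial genes were compared from lists of related functions. Of 23 tested assembly factors and electron carriers outside the symbol rule, none passed between late and early times, with a median difference of -0.03. Ttc19, a complex III assembly factor, had the lowest p for a change at any time and did not pass either (adjusted p = 0.221). None of 19 genes of the TCA cycle and pyruvate dehydrogenase passed (median -0.17), with Pdk3, a pyruvate dehydrogenase kinase, nearest for a change at any time (adjusted p = 0.332). None of 12 genes of mitochondrial biogenesis passed (median -0.06), with Polg2, a subunit of the mitochondrial DNA polymerase, nearest at an adjusted p of 0.54. Between late and early times limma gave unadjusted p-values under 0.05 for 5, 4 and 1 genes of these lists. For a change at any time the counts were 3, 1 and 0.

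Some carriers of the inner membrane were among the genes that fell. Of 11 tested genes of carriers, outer membrane and inner membrane structure, 4 fell and none rose, with a median of -0.43. Slc25a5, an exchanger of ADP and ATP across the inner membrane, fell by 1.38 (SE 0.13, limma adjusted p = 1.33e-08), and Slc25a3, the phosphate carrier, by 0.91 (SE 0.09, adjusted p = 2.96e-08). Vdac1, a channel of the outer membrane, fell by 0.65 (SE 0.11, adjusted p = 0.000235) and Immt, a protein that shapes the cristae, by 0.51 (SE 0.15, adjusted p = 0.04). Slc25a3 was also called against untreated at 2 h (adjusted p = 0.029). The other inner membrane carriers tested did not pass, with -0.02 for Slc25a11 (adjusted p = 0.963) and 0.21 for Slc25a1 (adjusted p = 0.42). Vdac2 gave -0.72 (SE 0.23, adjusted p = 0.0606) and did not pass, but it was called for a change at any time (adjusted p = 0.0389 by limma's F-test).

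Markers of cell types were read on the same contrast. Of 12 fibroblast markers 7 rose and 2 fell, with a median difference of 0.83 against -0.25 for the subunit genes. The collagen genes Col1a1, Col1a2 and Col3a1 rose by 1.69 (SE 0.08), 1.73 (SE 0.10) and 1.27 (SE 0.13) and the proteoglycan Dcn by 2.49 (SE 0.11), while Vim and Fn1 fell by 1.05 (SE 0.13) and 0.31 (SE 0.08), with limma adjusted p-values of at most 0.021. The array median of this list was between -0.77 and -0.19 on the 12 early arrays and between -0.14 and 0.91 on the 12 late ones. Of the other markers, none of 4 epithelial and none of 2 muscle and fat genes passed, and of 3 blood cell genes Lyz2 rose by 0.54 (SE 0.16, adjusted p = 0.0338). The part of any of these in the lower late values of the subunit genes was not tested.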

How the data were processed

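Channel 1 held RNA of Erbb2 transfected NIH3T3 cells and channel 2 that of untreated cells, per the labels. The deposited values are log2 ratios per probe; the software and normalization behind them, and the numerator, are not given in the sources used here. Values above 12, which sat at a ceiling of the deposited columns, were dropped, array medians were subtracted, and the sign of arrays with treated cells in Cy3 was reversed (a factor of -1). In the 5 and 7 day columns the deposited values had slid against the probe rows at 4 points (first at row 6052); a model of shared missing values moved them back. Their missingness then correlated with that of other arrays at 0.327 to 0.448, against 0.129 to 0.167 before and 0.352 to 0.428 at 3 days. Another 234 probes, none of a member, were left out of each 5 and 7 day array. In 5d replicate 1 the values had also slid by 1 row over the whole length and were moved back too. Symbols came from the platform annotation: 14030 of 20355 probes had 1 symbol, 5 several and 6320 none. Probes of a gene were averaged.

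limma 3.58.1 in R 4.3.3 was fitted to all 35 arrays with group means plus a common dye term, then eBayes, with at least 3 values per group compared. P-values were adjusted by the Benjamini-Hochberg method over all genes, and an adjusted p under 0.05 was called. The procedure was tested on simulated data, in which a gene had the same SD on every array and no dye effect. That test does not cover the wider spread of the late arrays or differences between the dyes. The number of arrays limits the precision. Named genes were those called in any of 10 tests, the 2 with the lowest F-test p per complex, the highest and lowest at each time and paralogous pairs. The members, gene lists and tests were chosen with earlier results of these data known.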

Additional observations from a re-analysis of the deposited data

Results flagged for a closer look

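In 13 of 230 groups of 4 arrays checked for a gene or a complex median, 1 array stood apart from the other 3 by Dixon's test, which chance does for about 1 group in 20. At 1 h these were Atp5b on replicate 2 (0.176 against 0.291 to 0.307), Atp5o on replicate 3 (0.096 against 0.169 to 0.176), Cox5b on replicate 4 (0.227 against 0.591 to 0.657) and Sdhd on replicate 4 (0.155 against 0.369 to 0.395). At 12 h Atp5o was low on replicate 3 (-0.024 against 0.083 to 0.1) and Sdhb high on replicate 4 (0.925 against -0.042 to 0.025). At 24 h the complex II median on replicate 2 (0.241 against 0.186 to 0.19) and Ndufc2 on replicate 3 (0.236 against 0.122 to 0.139) were high. At 3 days replicate 2 was high for Sdhd (0.096 against -0.23 to -0.209) and low for Uqcr11 (-0.888 against -0.337 to -0.254). At 5 days Cox7a2 was low on replicate 2 (-0.539 against -0.048 to 0.046). At 7 days Atp5pb was low on replicate 3 (-0.891 against -0.34 to -0.29) and Uqcr11 high on replicate 1 (0.243 against -0.421 to -0.367).

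The log2 ratio differed between late and early arrays for 22 members by limma's test of that difference, which uses no untreated array. Time in tetracycline and the wider spread of the late arrays cannot be told apart in it. For the median over all members, every array of 3 and 5 days lay below 0 and every array of 1, 2, 4 and 24 h above it. The 3 day mean lay -0.242, -0.365, -0.281 and -0.279 from those of 1, 2, 4 and 24 h, and the 5 day mean -0.366, -0.489, -0.404 and -0.403. These differences of medians were not tested.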

How the results depend on the processing

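Over the 15 settings and the leaving out of each array, the named genes that passed kept the sign of their difference with 2 exceptions. The first exception was leaving the Cy3 arrays unturned: against untreated Ndufa6 gave 0.409, 0.635, 0.414 and 0.469 at 1 h and 3, 5 and 7 days, Sdhd -0.209 at 2 h, and Ndufc2 0.312 and Uqcrh 0.436 at 5 days; late minus early, Atp5g3 gave 0.13, Atp5l 0.082, Cox5b 0.011, Cox7b 0.018, Ndufb7 -0.192, Ndufc2 0.052 and Sdhd 0.147. Unturned, 0, 0, 1, 9, 0 and 3 members passed at 1, 2 and 12 h and 3, 5 and 7 days, 2 at any time and 3 between late and early, with medians of 0.072, 0.114 and 0.113 at 12 h, 5 and 7 days. The second was leaving the 5 and 7 day values unmoved: Ndufa6 at 7 days gave 0.095, 0 members passed at 5 days (median -0.157), 6 at any time and 12 late against early. Without centring, the medians at the 8 times were -0.279, -0.194, -0.202, -0.327, -0.291, -0.423, -0.725 and -0.557, all genes shifting by -0.251 to -0.374, so that members relative to all genes moved by at most 0.006; 0, 2, 7 and 5 passed at 2 h, 3, 5 and 7 days, 6 at any time and 13 late against early. Quantile normalization called 4, 1, 0 and 0 at 2 h, 4 h, 3 and 7 days and 19 at any time. A dye effect per group called 2, 3, 7 and 3 at 2 h, 3, 5 and 7 days and 21 at any time. Array weights called 7, 12, 5, 1, 3, 0 and 9 at 1, 2, 4, 12 and 24 h, 3 and 5 days and 24 at any time. A fit of only the groups compared called 0 at 1 h, 2 h, 3, 5 and 7 days. Without all late arrays 6 passed at 2 h. Against 0, 3, 11, 1, 5, 10 and 5 passed at 1, 2 and 4 h, 3, 5 and 7 days, with medians of 0.125 at 24 h and -0.24 at 5 days. With each probe alone 2 passed at 3 days, 6 at 5 days and 19 at any time. Scaling to 1 interquartile range, chosen after seeing the data like the fits per dye and without some late times, called 8, 1, 0, 1 and 0 at 2 h, 4 h, 3, 5 and 7 days and 22 at any time (median -0.241 at 5 days), and without the 5 and 7 day arrays 10 passed late against early. Leaving out 1 array at a time gave 0 to 2 members at 1, 2 and 4 h, 0 to 1 at 12 and 24 h, 0 to 3 at 3 and 7 days, 1 to 6 at 5 days, 12 to 16 at any time and 17 to 24 late against early, with medians of -0.002 to 0.039, 0.13 to 0.225, 0.036 to 0.091, -0.093 to -0.022, 0.019 to 0.056, -0.243 to -0.146, -0.421 to -0.327 and -0.263 to -0.123 at the 8 times. Same-numbered arrays did not deviate together (136 pairs, correlations of -0.172 to 0.146, median 0.021, 4 over 0.1), so the numbers were not taken as pairs; with the replicate block 20 members passed late against early and 12 at any time. Medians near 0 changed sign in further settings: at 1 h under quantile normalization (-0.024) and without 1h replicate 1 or untreated replicate 1 (-0.002 each), at 24 h under quantile normalization (-0.008), at 12 h against 0 (0.046) and with scaling (0.009), and at 1, 2, 4 and 24 h without centring, as given above. The cause of these changes was not tested. The share of all genes called late against early also moved with the setting, from 2.4% unturned to 8.72% without the 3 day arrays. For the other comparisons under these settings that share is mostly not given here, so their counts alone are not results about the members. Signal over background was not used here, so dim probes were not set apart.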
